A study of Mus musculus with 6 samples.

Results

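The variable (V) segments of the T cell receptor alpha and beta chains were described in lymphocytes sorted from the mammary gland. The members were the genes whose symbol begins with Trav or Trbv, 163 of the 55450 genes in the count table. Of these, 128 were Trav segments of the alpha locus and 35 were Trbv segments of the beta locus. The 6 bulk RNA sequencing libraries came from late-pregnant (E18.5) mice, and fell into 3 libraries of CD8 beta+ T cells and 3 libraries of double negative (DN) NK1.1+ lymphocytes. The labels used here give neither the markers that the DN cells lack nor the strain, age or number of the mice. Nothing in the labels says whether the libraries of a group came from separate mice, so the p-values measure the spread between these libraries, which may be technical. The question was how the V segments of the DN NK1.1+ cells differed in level and in relative use from those of the CD8 beta+ cells.

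A T cell builds each receptor chain by joining germline segments. An alpha chain joins a V to a J segment before the constant gene Trac, and a beta chain joins a V, a D and a J segment before Trbc1 or Trbc2. The delta chain of gamma-delta T cells is encoded inside the alpha locus, and some alpha V segments, marked dv in their symbol, can be joined to delta segments and the constant gene Trdc. Invariant natural killer T (NKT) cells of the mouse carry an alpha chain of a Trav11 family segment joined to Traj18, and mucosal-associated invariant T (MAIT) cells one of Trav1 joined to Traj33. In bulk RNA a V segment count is summed over all cells and clones, and does not show which V was joined to which J or paired with which other chain.

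The alpha V segments lay on chromosome 14 between 52427928 and 53977678 on the plus strand in mm10 (GENCODE M21), and the beta V segments on chromosome 6 between 40891229 and 41558452. Part of the mouse alpha locus is duplicated, and the copies carry a d or an n in their symbol. The sequences of the Trav15 family and of the Trav11 family are shown because results on delta-capable and NKT-associated segments turned on them, and because their copies were close to identical. They are the last 120 bases of the GENCODE M21 transcripts, 5′ to 3′. In the Trav15 family, capitals mark bases that differ from Trav15d-1-dv6d-1 (chr14:52863299-52863936, plus strand).
Trav15d-1-dv6d-1: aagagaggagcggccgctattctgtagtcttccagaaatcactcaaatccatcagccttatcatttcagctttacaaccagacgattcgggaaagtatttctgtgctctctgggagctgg
Trav15-1-dv6-1: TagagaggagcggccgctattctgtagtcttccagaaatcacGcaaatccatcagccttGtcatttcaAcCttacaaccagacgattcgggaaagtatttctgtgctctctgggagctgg
Trav15d-2-dv6d-2: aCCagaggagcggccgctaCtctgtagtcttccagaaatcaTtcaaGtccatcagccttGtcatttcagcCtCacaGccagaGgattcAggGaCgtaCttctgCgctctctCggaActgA
Trav15-2-dv6-2: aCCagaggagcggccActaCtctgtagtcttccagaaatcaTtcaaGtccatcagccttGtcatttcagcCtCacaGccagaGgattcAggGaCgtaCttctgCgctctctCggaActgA

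Over these bases Trav15-1-dv6-1 (chr14:53559632-53560247) differed from Trav15d-1-dv6d-1 at 5 bases, Trav15d-2-dv6d-2 (chr14:52956782-52957400) at 18 and Trav15-2-dv6-2 (chr14:53649404-53649994) at 19. The copy Trav15n-1 (chr14:53174325-53174896) had the same 120 bases as Trav15d-1-dv6d-1, and Trav15n-2 (chr14:53267917-53268535) the same as Trav15d-2-dv6d-2. In the Trav11 family, capitals mark bases that differ from, or extend beyond, Trav11d (chr14:52824357-52824912).
Trav11d: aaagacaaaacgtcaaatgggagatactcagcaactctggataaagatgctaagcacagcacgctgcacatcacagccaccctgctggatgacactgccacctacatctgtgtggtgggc
Trav11: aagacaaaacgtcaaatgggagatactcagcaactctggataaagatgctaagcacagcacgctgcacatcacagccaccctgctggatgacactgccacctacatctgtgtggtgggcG
Trav11n: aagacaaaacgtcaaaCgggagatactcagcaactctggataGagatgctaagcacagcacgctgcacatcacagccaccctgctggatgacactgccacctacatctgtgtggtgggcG

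Trav11 (chr14:53519303-53519859) differed from Trav11d in the printed end by 1 further base at its 3′ end. Trav11n (chr14:53135122-53135678), annotated as a pseudogene, differed at 3 bases including that one. Sequence identity of this kind bore on the counts. Of 540 pairs of Trav segments within a family, 17 had identical annotated sequences, and 15 of those pairs had identical nonzero values in every library while the other 2 pairs were at 0. Trav12d-2 and Trav12n-2, for example, each held 22, 41 and 30.8 counts in the CD8 beta+ libraries. In all, 93 Trav segments fell in sets of copies at least 97% identical, so the alpha values are also given by copy set and by family.

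The 6 libraries held 7961360 to 14367299 counts, of which the V segments took 0.0176% to 0.0484%. Summed Trav counts were 1778, 3080 and 2145 in the CD8 beta+ libraries and 1171, 931 and 1315 in the DN NK1.1+ libraries, and summed Trbv counts were 2030, 2969 and 2489 against 1390, 1169 and 1545. A single count was therefore worth 0.0325% to 0.107% of the alpha chain and 0.0337% to 0.0855% of the beta chain. The labels were checked against fixed marker lists, given in CPM, counts scaled to library size. Cd8b1, the CD8 beta chain, was at 949 ± 57.8 CPM in CD8 beta+ libraries and 2.57 ± 1.58 in DN NK1.1+ libraries (SD, n = 3 each), and Klrb1c, which encodes NK1.1, at 37.1 ± 5.68 and 639 ± 20.8. The summed NK1.1+ markers (Klrb1c, Ncr1 and Klra8) ran from 32.1 to 43.1 CPM in the CD8 beta+ libraries and from 1015 to 1095 in the DN NK1.1+ libraries. The natural killer receptor Ncr1 was at 273 ± 20.6 CPM in the DN NK1.1+ libraries, beside Trac at 241 ± 12.9. Another CD8 gene, Cd8a, fell less than Cd8b1, from 911 ± 85.8 to 162 ± 11.6 CPM. Its log2 fold change was -2.49, beside -8.55 for Cd8b1, and which cells carried the remaining Cd8a RNA was not tested. Cd5 fell from 159 ± 11.1 to 10.1 ± 0.811 CPM. Cd4 was low in both groups (2.15 ± 2.54 and 1.36 ± 0.765 CPM). Summed B cell markers ran from 157 to 227 and from 248 to 298 CPM, summed myeloid markers (2 of 3 tested rose, Itgax and Csf1r) from 158 to 237 and from 354 to 408, and the luminal milk gene Csn2 from 290.5 to 446 and from 139 to 914, in CD8 beta+ and DN NK1.1+ libraries.

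V segments of both chains were at a lower level in the DN NK1.1+ libraries. Summed Trav segments were at 231, 223 and 221 CPM in the CD8 beta+ libraries and at 101, 78.0 and 99.7 CPM in the DN NK1.1+ libraries. Summed Trbv segments were at 264, 214 and 256 CPM against 119.8, 98.0 and 117 CPM. The groups did not overlap for either chain. The means were 225 ± 5.51 and 92.9 ± 12.9 CPM for Trav, a ratio of 0.413, and 245 ± 26.6 and 112 ± 11.9 CPM for Trbv, a ratio of 0.456 (SD, n = 3 each). Each difference reached the exact two-sided permutation p of 0.1, which is the smallest that 3 against 3 libraries allow, and 0.16 after Benjamini-Hochberg adjustment over the 8 summary measures tested. In bulk RNA, fewer cells with a rearranged receptor and less receptor RNA per cell cannot be told apart.

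The constant genes moved the same way, but not by the same factor in both chains. Trac fell from 649 ± 52.5 to 241 ± 12.9 CPM, Trbc1 from 181 ± 18.0 to 124 ± 5.24 and Trbc2 from 262 ± 6.82 to 144 ± 16.6, with log2 fold changes of -1.43, -0.55 and -0.87 (edgeR adjusted p = 7.89e-08, 0.00142 and 2.40e-05). The alpha V count per Trac count was 0.332, 0.339 and 0.372 in the CD8 beta+ libraries and 0.394, 0.333 and 0.427 in the DN NK1.1+ libraries. These ranges overlapped, and the difference was not detectable (exact permutation p = 0.3, adjusted 0.343). Without the dv segments the direction of this small difference turned, from 0.0370 to -0.00247. The beta V count per count of Trbc1 and Trbc2 was 0.566, 0.491 and 0.600 in the CD8 beta+ libraries and 0.487, 0.363 and 0.409 in the DN NK1.1+ libraries. The beta ratio was lower in every DN NK1.1+ library than in any CD8 beta+ library, at 0.420 ± 0.0631 against 0.552 ± 0.0556 (SD, n = 3 each, exact permutation p = 0.1, adjusted 0.16). Constant gene transcripts can be made without a joined V segment, as background.

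**Figure D1:**
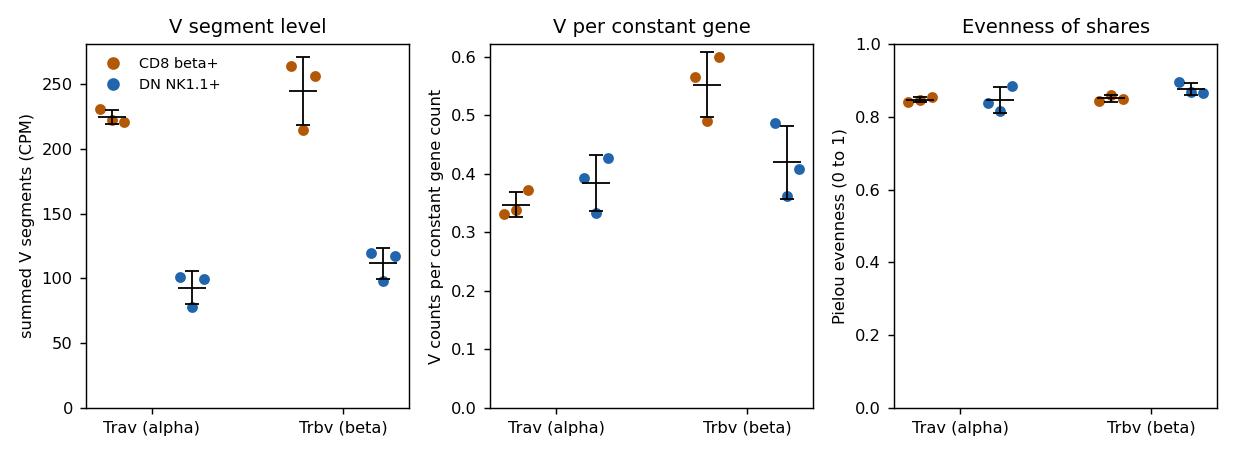
Summed V segment level in CPM (left), V counts per count of the chain's constant genes (middle) and Pielou evenness of segment shares (right), for Trav and Trbv. Points are libraries, bars the mean and SD of 3 libraries. Both V sums, and the beta ratio, are lower in each DN NK1.1+ library (blue) than in any CD8 beta+ library (orange), while the alpha ratio and alpha evenness overlap.

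Of 15 other receptor genes listed, 9 could be tested, and 7 fell while 1 rose, beside 5.99% falling and 7.84% rising over all genes tested. Besides the 3 constant genes, the falls were in the CD3 subunits Cd3e (765 ± 19.4 to 522 ± 7.47 CPM) and Cd3d (263 ± 16.1 to 136 ± 20.4), the zeta chain Cd247 (207 ± 7.97 to 109 ± 9.04) and the thymocyte selection gene Themis (387 ± 4.49 to 9.23 ± 5.01). Trdc, the delta constant gene, rose from 7.04 ± 1.32 to 88.3 ± 11.2 CPM (log2 fold change 3.65, edgeR adjusted p = 1.35e-09). Cd3g was at 728 ± 63.8 and 665 ± 66.5 CPM and did not pass (adjusted p = 0.501). Genes of ongoing rearrangement were near or at 0 summed over each group: Rag1 had 1 and 0 counts, Rag2 none, the terminal transferase Dntt 6 and 0, and the pre-T alpha chain Ptcra 3 and 1. The 60 Traj genes together held 4 and 1 counts, and the 14 Trbj and 2 Trbd genes none, so the joints of the invariant chains could not be read from this table.

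Single segments were tested by edgeR's quasi-likelihood test over all 13171 genes that passed a filter on low counts, with Benjamini-Hochberg adjustment and a threshold of 0.05. The filter kept 54 of 128 Trav and 19 of 35 Trbv segments. Those segments held 85.9% of the Trav and 99.2% of the Trbv counts in the CD8 beta+ libraries, and 83.6% and 98.9% in the DN NK1.1+ libraries. By level, 1 Trav segment rose and 8 fell, and no Trbv segment rose while 8 fell. Over all genes in this fit and at this threshold, 7.84% rose and 5.99% fell. At an unadjusted p under 0.05, 1 Trav segment rose and 19 fell, and 0 Trbv segments rose and 10 fell. DESeq2 found 1 rise and 24 falls over both chains together. For the unadjusted and the DESeq2 counts, shares over all genes are not given here. The median log2 fold change was -1.32 over the tested Trav and -0.87 over the tested Trbv segments, beside -0.0033 over all genes. The filter retains segments that are high in either group, so these medians describe the tested segments alone.

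Among alpha segments the level falls ran from Trav10 (8.68 ± 1.54 to 3.90 ± 0.61 CPM, log2 fold change -1.15) to Trav13-1 (1.67 ± 1.15 to 0.13 ± 0.08 CPM, -3.51). The others were Trav16 (-1.44), Trav5-4 (-2.10), Trav7-3 (-2.52), Trav19 (-2.99) and the identical pair Trav12d-2 and Trav12n-2 (-2.54 each), which are 1 measurement counted under both names. The Trav19 and Trav7-3 calls held when any 1 library was left out. The Trav16 call was lost when CD8 beta+ replicate 1 (adjusted p of 0.0855) or the second DN NK1.1+ library (0.0528) was left out, and the Trav5-4 call when CD8 beta+ replicate 1 (0.0503), CD8 beta+ replicate 3 (0.073) or the second DN NK1.1+ library (0.0608) was. Trav10 and Trav13-1 passed only when CD8 beta+ replicate 3 was the library left out (otherwise adjusted p = 0.0506 to 0.149 and 0.076 to 0.295), and the Trav12d-2 pair only when it was DN NK1.1+ replicate 3 (otherwise 0.0762 to 0.125). For Trav13-1 the call was also lost with no filter (0.0746) and with limma-voom (0.121).

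Among beta segments the level falls were in Trbv29 (20.4, 18.7 and 16.4 CPM against 6.38, 3.69 and 2.81, log2 fold change -2.11), Trbv12-1 (9.09 ± 2.43 to 1.52 ± 0.92, -2.56), Trbv13-1 (45.2 ± 20.1 to 10.4 ± 1.72, -2.11), Trbv19 (25.9 ± 12.5 to 9.35 ± 0.99, -1.47), Trbv13-3 (-1.44), Trbv13-2 (-1.42), Trbv4 (-1.09) and Trbv12-2 (-1.08). The first 6 of these calls held when any 1 library was left out. The Trbv4 call was lost when CD8 beta+ replicate 2 (adjusted p of 0.0705), CD8 beta+ replicate 3 (0.0874), or the first (0.094) or the second (0.0562) DN NK1.1+ library was left out, and Trbv12-2 passed only when DN NK1.1+ replicate 3 was left out (otherwise 0.0556 to 0.112). Not every beta segment was lower. Trbv1 was at 7.27 ± 2.50 CPM in the CD8 beta+ and 7.04 ± 1.54 CPM in the DN NK1.1+ libraries, and Trbv15 at 4.18 ± 2.05 and 4.60 ± 2.35 CPM, with log2 fold changes of -0.04 (SE 0.34) and 0.13 (SE 0.50) that did not pass.

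Since each chain as a whole was lower, a second fit tested usage, the change of a segment relative to the summed counts of its own chain. Shares within a chain sum to 100, so these tests are not independent of each other. By usage, 1 Trav segment rose and 1 fell, and 1 Trbv segment rose and 2 fell, over a background in which 7.83% of all features rose and 5.88% fell. At an unadjusted p under 0.05 the usage counts were 2 and 3 for Trav and 3 and 3 for Trbv. Of the 17 segments called by level, 4 were also called by usage: Trav15d-1-dv6d-1, Trav19, Trbv29 and Trbv12-1. The fifth usage call was Trbv1, whose level did not pass.

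**Figure D2:**
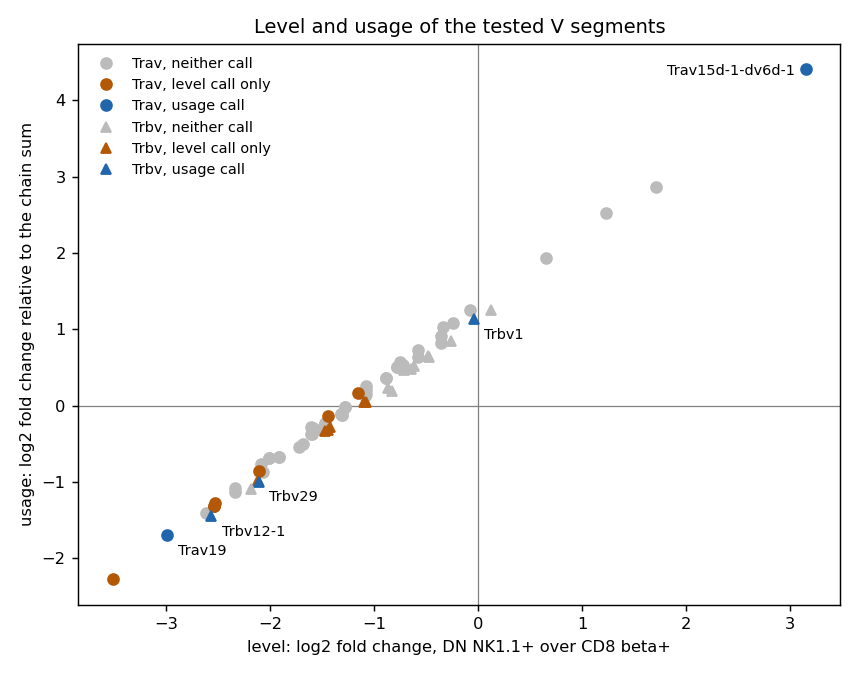
Log2 fold change of level (x axis) and of usage relative to the chain sum (y axis), DN NK1.1+ over CD8 beta+, for the 54 Trav (circles) and 19 Trbv (triangles) segments tested. Most segments lie left of 0 on the level axis and near 0 on the usage axis, and the 5 named segments passed the usage test.

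The segment with the largest rise was Trav15d-1-dv6d-1, which can serve a delta chain. It held 3, 16 and 4 counts in the CD8 beta+ libraries and 85, 56 and 85 in the DN NK1.1+ libraries. Its share of the alpha chain was 0.169%, 0.512% and 0.192% against 7.26%, 6.02% and 6.46%. From rounded counts, the highest CD8 beta+ share had a Clopper-Pearson 95% interval of 0.297% to 0.842%, and the lowest DN NK1.1+ share one of 4.58% to 7.74%, so the groups were apart by more than counting error. Such intervals cover counting error only. The log2 fold change was 3.15 (SE 0.56, edgeR adjusted p = 0.00115) by level and 4.40 (SE 0.57, adjusted p = 6.75e-05) by usage. Both calls held when any 1 library was left out. Its close copy Trav15n-1 held 16 counts over the CD8 beta+ libraries and 0 over the DN NK1.1+ libraries, and the summed pair held 3, 27 and 9 counts against 85, 56 and 85.

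The whole Trav15 family showed the same pattern, which does not depend on how counts were divided among its copies. The family made up 0.619%, 1.56% and 0.839% of the alpha chain in the CD8 beta+ libraries and 9.39%, 12.1% and 11.9% in the DN NK1.1+ libraries. In CPM it rose from 2.25 ± 1.08 to 10.3 ± 1.4, while all other Trav segments together were at 222.6 ± 6.16 and 82.6 ± 12.3 CPM (SD, n = 3 each). Family usage was 3.43 higher on the log2 scale (SE 0.40, edgeR adjusted p = 2.50e-05). Among 15 Trav families tested, Trav15 alone rose and Trav19 alone fell, over a background of 7.87% rising and 5.91% falling. Within Trav15, 2 copy sets rose: Trav15d-1-dv6d-1 with Trav15n-1 by 3.68 (SE 0.57, adjusted p = 3.26e-04) and the set of Trav15d-2-dv6d-2, Trav15n-2 and Trav15-2-dv6-2 by 3.59 (SE 0.83, adjusted p = 0.00829). The latter set held 5, 15 and 1 counts against 17, 47 and 52, and its call was lost without DN NK1.1+ replicate 2 (adjusted p = 0.0597). Trav15-1-dv6-1, with 3, 6 and 8 counts against 8, 10 and 20, did not reach the filter. In the copy set fit 7.87% of all features rose and 5.88% fell, and 2 Trav sets rose and 1 fell among 40 tested.

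**Figure D3:**
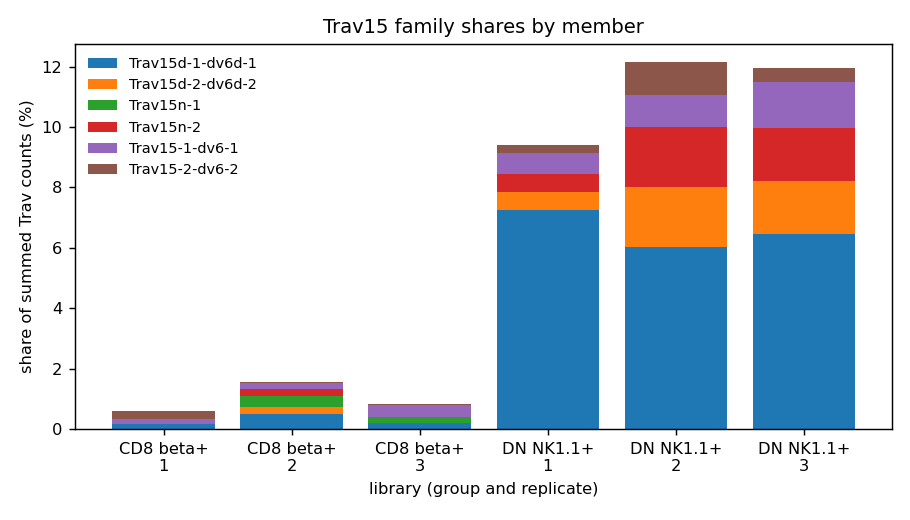
Share of summed Trav counts (percent) taken by each Trav15 family member, stacked, in each library. The family reaches 9.39% to 12.1% in the DN NK1.1+ libraries and at most 1.56% in the CD8 beta+ libraries, and Trav15d-1-dv6d-1 is the largest member in each DN NK1.1+ library.

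All 10 segments with dv in their symbol together made up 6.21%, 5.31% and 4.99% of the alpha chain in the CD8 beta+ libraries and 13.5%, 16.9% and 15.5% in the DN NK1.1+ libraries. The groups did not overlap, and the means were 5.51 ± 0.631% and 15.3 ± 1.69% (SD, n = 3 each, exact permutation p = 0.1, adjusted 0.16). With near-identical copies that lack dv in their symbol added, the means were 15.2 ± 1.93% and 26.7 ± 4.01%. In absolute level the dv segments were at 12.4 ± 1.74 and 14.1 ± 1.19 CPM. The 6 dv segments outside Trav15 made up 4.77 ± 0.709% and 5.57 ± 1.04%, ranges that overlapped. Those were Trav6-7-dv9 (1.79 ± 0.816% and 2.67 ± 0.775%), Trav21-dv12 (1.30 ± 0.804% and 1.09 ± 0.403%), Trav4-4-dv10 (0.445 ± 0.154% and 0.897 ± 0.787%), Trav14d-3-dv8 (0.449 ± 0.319% and 0.479 ± 0.576%), Trav13-4-dv7 (0.263 ± 0.326% and 0.273 ± 0.174%) and Trav16d-dv11 (0.528 ± 0.175% and 0.165 ± 0.171%). None of the 3 that could be tested passed by level or usage.

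Most gamma-delta T cell markers were higher in the DN NK1.1+ libraries, as were the Trav15 and dv shares. Of 8 such markers listed, 6 could be tested, and 5 rose and 0 fell, beside 7.84% rising and 5.99% falling over all genes tested. The summed level of the 8 ran from 123 to 159 CPM in the CD8 beta+ libraries and from 424 to 461 CPM in the DN NK1.1+ libraries. Trdv1 had the lower mean in the DN NK1.1+ group (1.99 ± 2.14 and 0.62 ± 0.63 CPM) and did not pass (edgeR adjusted p = 0.402). None of the 8 was at 0 in all libraries, although Trdv4 was at 0 in the 3 CD8 beta+ libraries. The count of Trdc per count of Trac was 0.00933, 0.00924 and 0.0144 against 0.332, 0.430 and 0.339. The 6 genes of the Trdv class, the V segments used by delta chains alone, summed to 1.43, 1.52 and 4.74 CPM against 4.91, 4.52 and 5.08 CPM. These ranges overlapped. The part of these genes in the dv result was not tested, and V counts do not show whether a Trav15 segment was joined to Trac or to Trdc.

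Trav19 had the highest mean share of single Trav segments in the CD8 beta+ group (7.28%, below the copy sets of Trav16, Trav7-3 and Trav9-2 at 8.93%, 7.45% and 7.33%) and fell relative to the chain in the DN NK1.1+ group. It is a single-copy segment of its family (chr14:53845234-53845827, plus strand), so no near-identical Trav copy divides its counts. It held 91, 241 and 191 counts in the CD8 beta+ libraries and 26, 26 and 23 in the DN NK1.1+ libraries. The shares were 5.12%, 7.82% and 8.91% against 2.22%, 2.79% and 1.75%, without overlap. Usage fell by 1.70 on the log2 scale (SE 0.32, edgeR adjusted p = 0.00172), and level fell by 2.99 (SE 0.31, adjusted p = 7.63e-06). Both calls held when any 1 library was left out.

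The other tested alpha families did not pass the usage test. Trav12 made up 16.6 ± 5.29% and 12.7 ± 2.28%, Trav7 15 ± 0.661% and 10.5 ± 2.16%, Trav6 11 ± 0.663% and 10.8 ± 1.16%, Trav9 9.26 ± 3.47% and 10.9 ± 2.75%, and Trav16 8.93 ± 1.74% and 8.52 ± 4.61% (SD, n = 3 each). Trav4 (1.31 ± 0.159% and 2.83 ± 0.456%), Trav5 (4.46 ± 1.35% and 2.33 ± 0.941%) and Trav7 had shares that did not overlap between groups (family usage adjusted p = 0.208, 0.144 and 0.118). Single libraries stood apart within a group. Trav2 held 50 counts in CD8 beta+ replicate 2 and 2 in each of the other two, and Trav12d-3 held 99, 209.7 and 15.3 counts in the CD8 beta+ libraries. Counts also fell on different copies in different libraries, and the cause was not tested. Trav7d-2 held 45, 0 and 0 counts and its close copy Trav7-2 held 0, 69 and 98 counts in the same libraries, with sums of 45, 69 and 98 against 20, 3 and 34 in the DN NK1.1+ libraries.

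**Figure D4:**
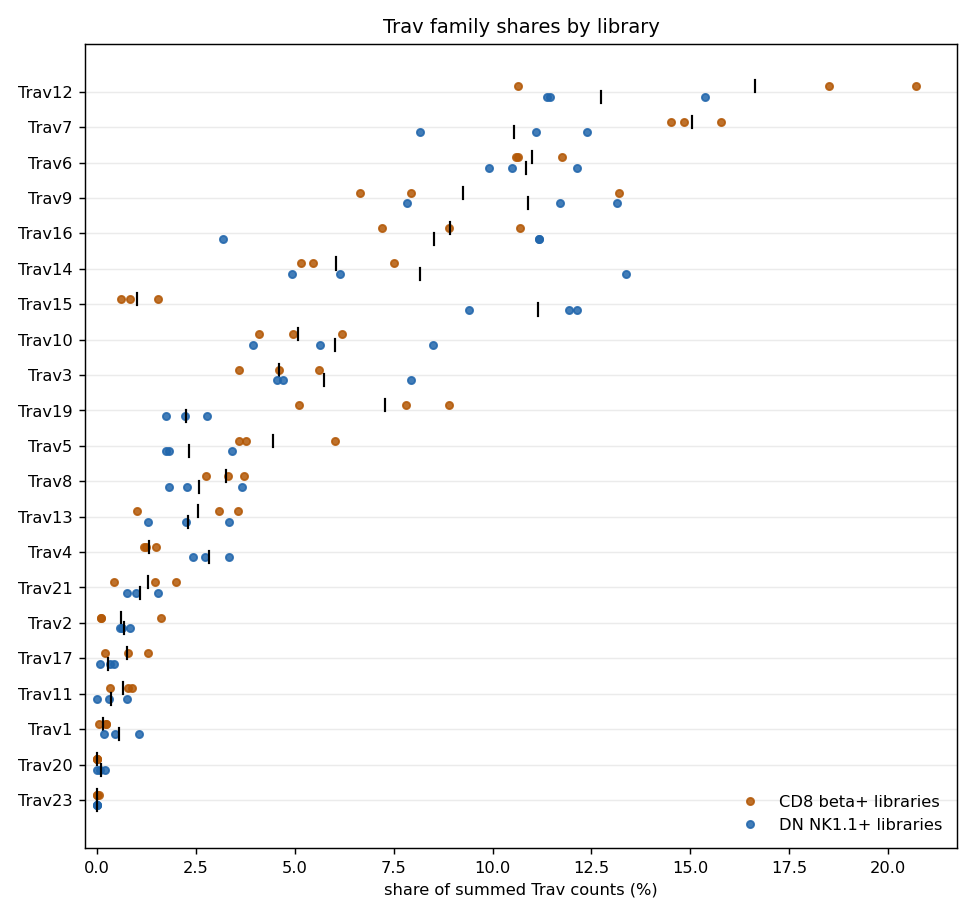
Share of summed Trav counts (percent) of each Trav family with a count, by library, with the mean of each group as a black tick. Trav15 is the family with the widest gap between groups relative to its spread, and Trav19 lies lower in the DN NK1.1+ libraries (blue) than in the CD8 beta+ libraries (orange).

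Along the locus the groups' alpha counts had overlapping distributions. Dividing the span of the Trav segments into 3 equal stretches from the 5′ end, the first held 20.5 ± 5.03% and 21 ± 1.31% of counts, the middle 30.9 ± 3.59% and 30.2 ± 5.18%, and the last 48.5 ± 1.54% and 48.8 ± 6.08%. Segments with no copy letter made up 60.6 ± 2.63% and 57.1 ± 4.91%, d copies 24.5 ± 3.30% and 24.1 ± 3.0%, and n copies 15 ± 2.18% and 18.8 ± 2.88%. The ranges of the 2 groups overlapped in each of these classes.

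Segments of invariant T cells were rare in both groups. The Trav11 family made up 0.787%, 0.325% and 0.886% of the alpha chain in the CD8 beta+ libraries and 0%, 0.752% and 0.304% in the DN NK1.1+ libraries, and the ranges overlapped (0.666 ± 0.300% and 0.352 ± 0.378%, exact permutation p = 0.2, adjusted 0.267). The count of 0 in DN NK1.1+ replicate 1 allows a share of up to 0.256% by the floor of 3 counts, and of up to 0.315% by the Clopper-Pearson 95% interval. Counts fell on Trav11d, with 13, 10 and 19 against 0, 7 and 4, while Trav11 was at 0 in all 6 libraries and the pseudogene Trav11n held 1 count in CD8 beta+ replicate 1. Trav11d and Trav11 share the printed sequence up to the last base. How reads of such copies were assigned is not stated in the labels, so whether these counts separate the copies was not tested. The level of the family was 1.5 ± 0.676 and 0.297 ± 0.293 CPM, and it did not reach the filter. Trav1, the MAIT segment, held 4, 7 and 1 counts against 2, 10 and 6. Zbtb16, which encodes the PLZF factor of NKT and MAIT cells, measured 1.34 ± 1.13 and 8.02 ± 5.91 CPM and did not pass (adjusted p = 0.201).

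In the beta chain the usage calls fell on Trbv1, Trbv29 and Trbv12-1. Their last 90 annotated bases are shown, with Trav19 of the alpha chain, because these 4 segments carried the usage differences outside Trav15. The sequences are from GENCODE M21 transcripts, 5′ to 3′, and capitals mark the last 15 bases, the end of the V segment that is joined during rearrangement.
Trbv1: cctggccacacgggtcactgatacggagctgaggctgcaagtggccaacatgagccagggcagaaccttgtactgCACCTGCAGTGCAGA
Trbv29: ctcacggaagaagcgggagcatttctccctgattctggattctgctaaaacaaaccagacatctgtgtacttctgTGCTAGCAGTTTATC
Trbv12-1: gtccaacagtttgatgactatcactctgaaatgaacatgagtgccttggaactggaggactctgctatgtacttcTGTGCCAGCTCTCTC
Trav19: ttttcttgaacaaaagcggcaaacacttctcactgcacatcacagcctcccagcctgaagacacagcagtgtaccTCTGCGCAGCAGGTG

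Trbv1 (chr6:40891229-40891885, plus strand) is the most upstream segment of the beta locus. It held 54, 68 and 96 counts in the CD8 beta+ libraries and 69, 105 and 84 in the DN NK1.1+ libraries. Its share of the beta chain was 2.66%, 2.29% and 3.86% against 4.96%, 8.98% and 5.44%, without overlap. Usage was 1.13 higher on the log2 scale (SE 0.35, edgeR adjusted p = 0.0416), and it no longer passed when CD8 beta+ replicate 1 (adjusted p of 0.152), CD8 beta+ replicate 2 (0.168) or the second DN NK1.1+ library (0.223) was left out. Over the alternatives the adjusted p ran from 0.0244 to 0.223. With a level of 7.27 and 7.04 CPM, Trbv1 took a higher share of a lower chain sum.

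Trbv29 (chr6:41271394-41271881, plus strand) held 157, 259 and 159 counts against 74, 44 and 37. Its share was 7.74%, 8.72% and 6.39% against 5.32%, 3.76% and 2.4%, and the groups did not overlap. Usage fell by 1.0 (SE 0.30, edgeR adjusted p = 0.0350) on the log2 scale, and it no longer passed when CD8 beta+ replicate 1 (adjusted p of 0.128), CD8 beta+ replicate 2 (0.162), or the second (0.0998) or the third (0.115) DN NK1.1+ library was left out. Trbv12-1 (chr6:41113550-41114067, plus strand) held 87, 90 and 92 counts against 16, 8 and 33. Its usage fell by 1.45 (SE 0.44, adjusted p = 0.0401), a call that passed only when DN NK1.1+ replicate 3 was the library left out (otherwise 0.0755 to 0.175). The related Trbv12-2, 88.3% identical to Trbv12-1 over 385 aligned bases, took 3.81 ± 0.748% and 3.96 ± 0.568% of the chain.

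The Trbv13 family, whose segments are among those that pair with the invariant NKT alpha chain, had the highest mean share of the beta families in both groups. It made up 37.9%, 33.8% and 21.1% of the beta chain in the CD8 beta+ libraries and 17.8%, 21.5% and 19.2% in the DN NK1.1+ libraries. The third CD8 beta+ library lay inside the DN NK1.1+ range. Family usage fell by 0.67 on the log2 scale (SE 0.19, edgeR adjusted p = 0.0356), but the call passed only when CD8 beta+ replicate 3 was the library left out (otherwise adjusted p = 0.0781 to 0.189). Most of the spread came from Trbv13-1, with shares of 24.7%, 21.2% and 9.76% against 7.19%, 10.8% and 10.3% and a usage adjusted p of 0.0959. Trbv13-2 made up 6.36 ± 1.06% and 5.22 ± 1.2%, and Trbv13-3 6.06 ± 0.234% and 4.87 ± 1.71%. Among 16 Trbv families tested, Trbv1 rose and Trbv29 and Trbv13 fell, over a background of 7.87% of all features rising and 5.91% falling.

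Trbv3 and Trbv19 were the other large beta segments. Trbv3 made up 9.21%, 7.91% and 18.0% against 15.7%, 14.6% and 20.1%, the highest mean share of the beta chain in the DN NK1.1+ group, with a usage adjusted p of 0.306. Trbv19 made up 6.41%, 9.63% and 15.7% against 8.56%, 8.47% and 8.09%. The CD8 beta+ libraries differed more among themselves for Trbv13-1, Trbv3 and Trbv19 than the DN NK1.1+ libraries did, and CD8 beta+ replicate 3 was the lowest for Trbv13-1 and the highest for Trbv3 and Trbv19. Trbv17 (4.17 ± 1.52% and 6.48 ± 0.647%) and Trbv26 (2.27 ± 0.285% and 3.56 ± 0.602%) had higher shares in each DN NK1.1+ library than in any CD8 beta+ library but did not pass (usage adjusted p = 0.234 and 0.323). Trbv16 (3.32 ± 0.537% and 5.92 ± 2.34%) and Trbv15 (1.72 ± 0.804% and 4.14 ± 2.02%) overlapped between groups. Trbv31, which lies inverted at the far end of the locus, made up 0.627 ± 0.324% and 0.717 ± 0.816%.

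**Figure D5:**
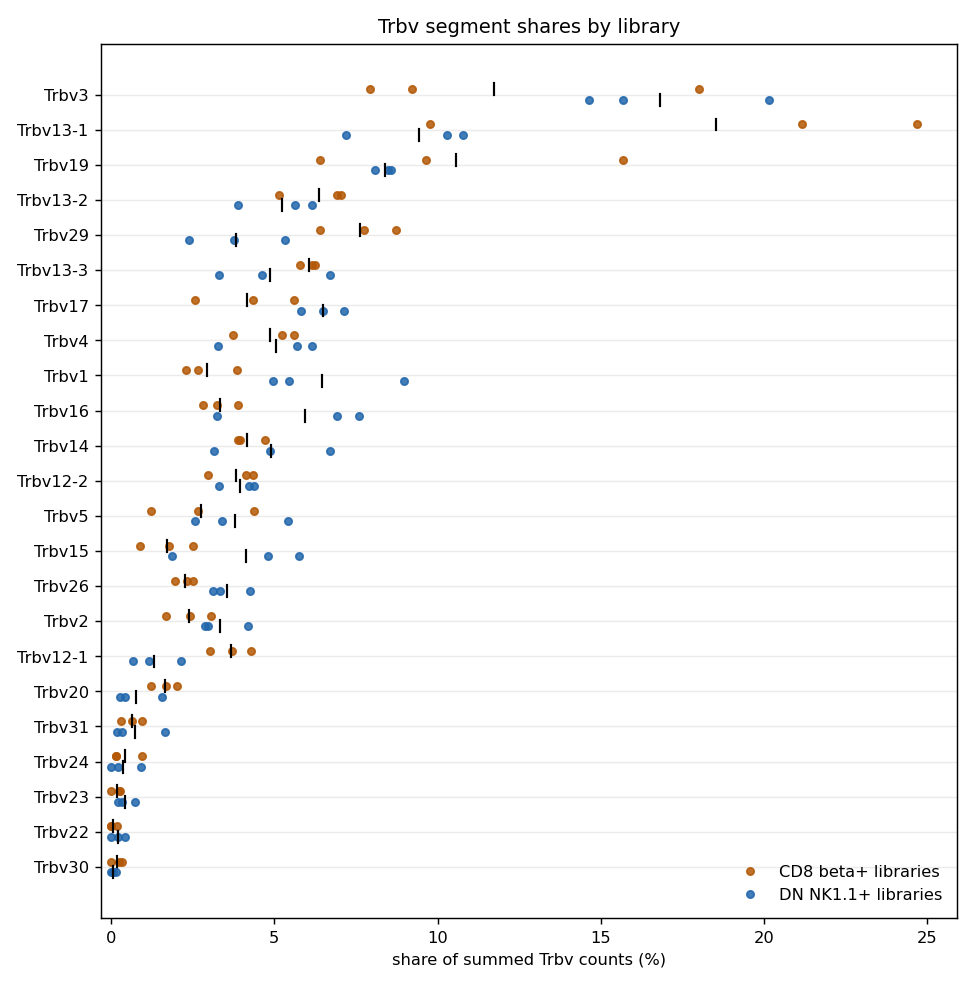
Share of summed Trbv counts (percent) of each Trbv segment with a count, by library, with the mean of each group as a black tick. Trbv1 lies higher, and Trbv29 and Trbv12-1 lower, in the DN NK1.1+ libraries (blue), while Trbv13-1, Trbv3 and Trbv19 spread widely among the CD8 beta+ libraries (orange).

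Both repertoires were broad. Evenness was measured as Pielou's index, the Shannon entropy of the shares over its maximum, which is 1 when all segments have equal shares. Trav evenness was 0.841, 0.847 and 0.853 in the CD8 beta+ libraries and 0.838, 0.815 and 0.884 in the DN NK1.1+ libraries, and did not differ beyond its spread (exact permutation p = 0.9, adjusted 0.9). The entropy corresponded to 50.9, 52.3 and 53.9 equally used Trav segments against 50.3, 45.1 and 62.1. Trbv evenness was 0.842, 0.861 and 0.848 against 0.896, 0.867 and 0.867, so that each DN NK1.1+ library lay above each CD8 beta+ library (0.850 ± 0.00943 and 0.877 ± 0.0167, SD, n = 3 each, exact permutation p = 0.1, adjusted 0.16). This corresponded to 14, 14.9 and 14.3 equally used Trbv segments against 16.6, 15.2 and 15.1. The 5 highest Trbv segments of each library held 55.1%, 54.3% and 56.1% of the chain against 45.7%, 49.3% and 52.6%.

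The leading segments were partly shared. The 8 Trav segments with the highest mean share in the CD8 beta+ group were Trav19 (7.28%), Trav16 (6.0%), Trav12-2 (5.06%), Trav7-3 (5.03%), Trav12d-3 (4.36%), Trav10 (3.86%), Trav7d-3 (2.42%) and Trav16n (2.4%). In the DN NK1.1+ group they were Trav15d-1-dv6d-1 (6.58%), Trav16 (5.50%), Trav10 (4.32%), Trav12-2 (4.16%), Trav12-1 (3.70%), Trav3-3 (3.07%), Trav16n (2.85%) and Trav6-7-dv9 (2.67%). These lists had 4 of 8 segments in common. The alpha ranks rest on counts divided among near-identical copies. By copy set, those of Trav16 (8.93%), Trav7-3 (7.45%), Trav9-2 (7.33%) and Trav19 (7.28%) led the CD8 beta+ group, and those of Trav9-2 (8.92%), Trav16 (8.52%) and Trav15d-1-dv6d-1 (6.58%) the DN NK1.1+ group. For Trbv, 5 of 8 were in common: Trbv13-1, Trbv3, Trbv19, Trbv13-2 and Trbv4. The CD8 beta+ list also held Trbv29, Trbv13-3 and Trbv14 (4.17%), and the DN NK1.1+ list Trbv17, Trbv1 and Trbv16. Shares are of counts, and annotated lengths ran from 155 to 595 bases for Trav and from 260 to 566 for Trbv. After division of the shares by length, the first 2 ranks of each list were unchanged. Trav7d-3 and Trav16n moved to ranks 9 and 10 in the CD8 beta+ group, and Trbv19 (566 bases) moved from rank 3 to 7 and Trbv4 from 8 to 10 in the DN NK1.1+ group.

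The share of the chain that any pair of libraries had in common, summing the lower of both shares over segments, is given as a description. For Trav segments it was 66.2% to 78.3% between CD8 beta+ libraries, 61.8% to 65.4% between DN NK1.1+ libraries, and 53.1% to 65.9% across groups. For Trbv segments it was 73.7% to 88.5%, 82.2% to 84.4% and 70.0% to 82.6%. Pairs across groups fell below the CD8 beta+ pairs for Trav, but overlapped in range with the DN NK1.1+ pairs, and for Trbv with the pairs of both groups.

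The remaining members carried few or no counts. In the alpha locus 107 segments had a count in some library and 56 in every library, and 21 were at 0 in all 6, of which 16 are annotated as pseudogenes. In the beta locus 23 had a count in some library and 19 in every library, and 12 were at 0, of which 11 are pseudogenes and the other is Trbv21. Pseudogenes took 0.328% and 0.263% of Trav counts and 0.427% and 0.634% of Trbv counts in the CD8 beta+ and DN NK1.1+ groups. Among segments too low to test, Trav5-1 held 13, 20 and 4 counts against 0, 0 and 1, a ratio of depth-scaled counts of 43.5 with a counting interval of 7.33 to 1763. Trav3-1 held 3, 8 and 5 counts against none, at least 6.27-fold higher in the CD8 beta+ libraries with the floor of 3 counts taken over the group.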

How the data were processed

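Bulk RNA sequencing libraries of 3 CD8 beta+ and 3 DN NK1.1+ sorts were analysed. The authors deposited 1 table of expected (estimated) counts per gene, a unit inferred from its values, which hold decimals and differ in total between libraries. The submitters' processing notes list mm10 and Cell Ranger 7.1.0, which is made for single cells. For the bulk table, the aligner, counter, annotation and use of strand are not stated in the labels. All 55450 identifiers and symbols matched GENCODE M21, which gave positions, gene types and sequences.

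Expected counts were rounded for tests and used as deposited for shares. The level test was edgeR 4.0.16 in R 4.3.3 (quasi-likelihood, robust, TMM, group alone, all 6 libraries) on genes passing edgeR's filter (minimum count 10, minimum total 15). The usage test replaced the library size of each V segment by the summed counts of its chain. The family test summed rows by the first number in the symbol. The copy set test, added after seeing the data, summed segments of a family at least 97% identical. Summary measures were tested by exact two-sided permutation of libraries. CPM values use TMM-scaled library sizes. The level and usage fits were tested on simulated data. In genes other than V segments, the level fit recovered 27.0% of 1.5-fold, 46.4% of 2-fold and 82.4% of 4-fold changes. Of 63 V segments of unchanged usage, simulated with the chain at 0.4 of its level, the level fit called 7.94%. The usage fit recovered 30% of 10 V segments with a 4-fold change in usage, and called 0% of 63 with unchanged usage. A change in the level or usage of a V segment that did not pass may therefore have been missed.

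The members and lists were chosen with earlier results of these data known. Named were the 8 segments of highest mean share per chain and group, segments called by level or usage, all dv and Trav11 segments, Trav1, Trbv1, Trbv13-1, Trbv13-2, Trbv13-3, Trbv19, Trbv29, listed pathway genes and, chosen after their values were seen, single families and segments that overlapped, stood apart or were low. Alternatives were RLE scaling, library size alone, no filter, a minimum count of 30, a replicate block, DESeq2 1.42.0, limma-voom (limma 3.58.1), dv segments or pseudogenes left out, other evenness measures and leaving out each library. Single-cell and receptor libraries were not analysed here.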

Additional observations from a re-analysis of the deposited data

How the results depend on the processing

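The call counts were the same under RLE scaling and library size alone. Level falls, 16 in all, numbered 23 with no filter, 17 with a minimum count of 30, 24 with DESeq2 and 17 with limma-voom, and 8 to 15 when each library was left out. With no filter, usage rises went from 2 to 4 and usage falls from 3 to 6, and copy set falls from 3 to 6. Usage rises were 1 without the dv segments. Leaving out each library gave 1 to 3 usage rises, 1 to 4 usage falls, 1 to 3 family rises, 1 to 3 family falls and 1 to 5 copy set falls. The difference in Trav evenness, -0.00136, turned sign with a library left out (-0.0203 to 0.0139), with families (0.0142), with the inverse Simpson index (4.48), with copy sets (0.000315) and with families without dv segments and their copies (0.00627), as did the Trav ratio to Trac without dv segments (-0.00247). The cause of these changes was not tested. For single segments named, 330 values kept their side of the threshold and 74 lost the call. At these chain totals, 3 counts are 0.0974% to 0.322% of the alpha chain, and shares below that are not resolved.

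Same-numbered libraries of the groups correlated at -0.050, 0.189 and 0.256 in their deviations over 13171 genes, and CD8 beta+ replicate 1 correlated best with DN NK1.1+ replicate 2 (0.106), so the numbers were not taken to pair the libraries. With the replicate block, there were 1 level rise and 20 falls, 3 usage rises and 4 falls, 3 family rises and 3 falls, and 4 copy set rises and 4 falls. The block ended the level call of Trav13-1 (edgeR adjusted p = 0.0802).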
